A study of Homo sapiens with 9 samples.

Results

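The genes described here are 10 members of the Hippo, YAP and TEAD axis, measured in TE13 cells: the cofactor genes YAP1 and WWTR1, the DNA-binding partners TEAD1 and TEAD4, and the target genes CCN1, CCN2, ANKRD1, AMOTL2, AXL and LATS2. They were taken by gene symbol from a list drawn up with earlier results of these data known, by a rule that holds no measured value, and each of the 10 symbols was found once among the 60605 genes listed. All 10 passed the filter on low values, which kept 21397 genes.

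TE13 is an established line of human esophageal squamous cell carcinoma, and poly(A)+ RNA was sequenced after transfection with a control siRNA or with PARylator siRNA.1 or PARylator siRNA.2, which target the long noncoding RNA PARylator (LINC00885). Each of the 3 conditions had 3 libraries, described by the submitters as biological replicates. Every library came from cells that received an siRNA, so no untransfected cells were compared, and the results refer to a single cell line. Total counts on genes lay between 15337917 and 17899074 with control siRNA, between 15374616 and 17762752 under siRNA.1, and between 19213164 and 22559998 under siRNA.2.

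The Hippo pathway is a kinase cascade in which MST kinases activate LATS kinases, and LATS kinases phosphorylate YAP and its paralogue TAZ, the product of WWTR1. Phosphorylated YAP and TAZ are kept in the cytoplasm or degraded, whereas unphosphorylated YAP and TAZ enter the nucleus and activate transcription through TEAD proteins. In squamous epithelia the pathway responds to cell density and mechanical tension. These libraries measure mRNA, not the phosphorylation or location of the proteins.

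TEAD proteins bind the letters GGAATG, so the promoter windows of RefSeq (GRCh38.p14, 250 bases before to 50 after each start site) were searched for them on both strands. Of the 10 genes, 7 had a window in the table (YAP1, WWTR1, CCN2, ANKRD1, AMOTL2, AXL and LATS2), and 4 of these 7 held at least 1 match, against 3836 of all 27305 windows (14.05%). Only 1 window per gene was searched, so other start sites were not covered. The WWTR1 window (chr3:149703274-149703523, minus strand) lies inside the gene, which reaches to 149736714. The CCN2 and ANKRD1 windows held more than 1 match each, and the YAP1 window held 1. Their 250 bases upstream of the start site are printed 5′ to 3′ on the strand of the gene, with each match in capitals: CCN2 from chr6:131951373-131951622 on the minus strand, ANKRD1 from chr10:90921088-90921337 on the minus strand, and YAP1 from chr11:102110197-102110446 on the plus strand.
CCN2: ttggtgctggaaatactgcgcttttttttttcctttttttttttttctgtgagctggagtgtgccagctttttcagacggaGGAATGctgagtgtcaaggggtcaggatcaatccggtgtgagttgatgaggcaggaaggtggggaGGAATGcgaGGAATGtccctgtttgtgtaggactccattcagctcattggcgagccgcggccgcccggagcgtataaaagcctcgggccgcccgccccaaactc
ANKRD1: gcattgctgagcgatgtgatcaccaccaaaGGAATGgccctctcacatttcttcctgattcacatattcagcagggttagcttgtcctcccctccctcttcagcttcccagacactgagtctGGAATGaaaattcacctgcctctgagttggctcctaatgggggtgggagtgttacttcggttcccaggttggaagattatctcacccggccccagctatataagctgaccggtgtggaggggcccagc
YAP1: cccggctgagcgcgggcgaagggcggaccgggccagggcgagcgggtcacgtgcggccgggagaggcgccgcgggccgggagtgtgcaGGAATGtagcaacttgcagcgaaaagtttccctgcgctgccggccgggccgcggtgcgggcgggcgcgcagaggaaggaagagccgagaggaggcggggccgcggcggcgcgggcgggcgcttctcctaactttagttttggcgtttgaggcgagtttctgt
In CCN2 the matches began at -169, -104 and -95 relative to the start site, the latter pair separated by 3 bases. In ANKRD1 they began at -220 and -128, and an AP-1 motif (TGANTCA, searched on both strands and found in 7.76% of all windows) lay between them, beginning at -195. The YAP1 match began at -162, and LATS2 held a match after its start site, from 9 to 14. No CArG box, the motif of serum response factor, was found in the 7 windows. With the motif in only 1.29% of all windows, 7 windows are too few to tell a lack of it. Of the 11 other target genes with a window, 4 held the TEAD motif. A match of letters is a description of the sequence and not a measurement of binding.

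**Figure D1:**
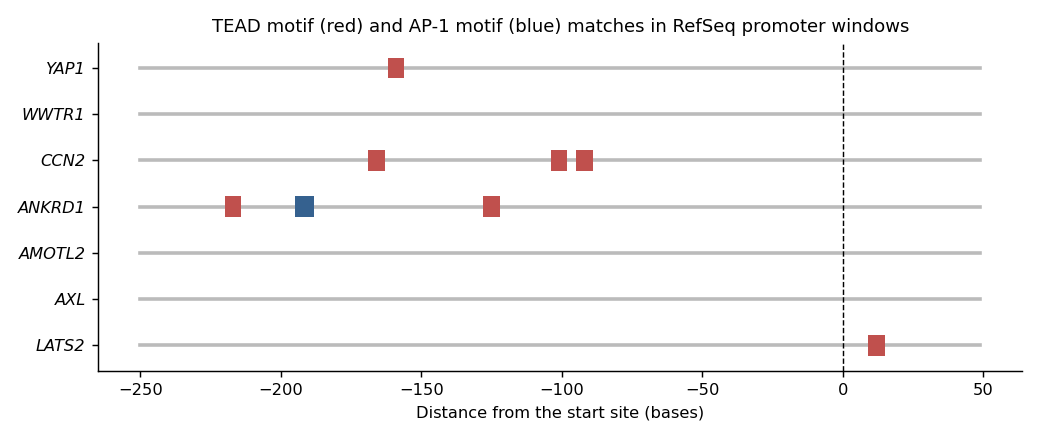
Positions of TEAD motif (red) and AP-1 motif (blue) matches in the 7 promoter windows, plotted as distance in bases from the start site (dashed line). CCN2 shows 3 TEAD motif matches, ANKRD1 shows 2 with an AP-1 motif between them, and the windows of WWTR1, AMOTL2 and AXL show none.

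Levels are given as FPKM, fragments scaled to exonic length and library total, which the authors deposited beside the counts and which can be compared between genes. With control siRNA the order from high to low was YAP1, CCN1, AMOTL2, AXL, TEAD1, TEAD4, WWTR1, LATS2, ANKRD1 and CCN2, and of these neighbours only TEAD1 and TEAD4 overlapped. Under siRNA.1, CCN1 stood above YAP1 in all 3 libraries ANKRD1 stood above WWTR1, and AXL and TEAD4 overlapped. Under siRNA.2, CCN1 again stood above YAP1, while the ranges of LATS2 and ANKRD1 overlapped, as did those of AXL and TEAD4.

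Changes were tested on the counts by edgeR's quasi-likelihood method, with all 9 libraries fitted together, with Benjamini-Hochberg adjustment over the 21397 genes and a threshold of 0.05. ANKRD1, CCN1 and TEAD4 rose with both siRNAs, and TEAD1, AMOTL2 and AXL rose under siRNA.1. In all, 6 of the 10 genes rose under siRNA.1, where 15.0% of all genes tested rose, and 3 rose under siRNA.2, where 15.8% rose. None of the 10 fell with either siRNA in the main edgeR fit, where 15.2% and 15.1% of all genes fell. At an unadjusted p under 0.05, 1 of the 10 fell with each siRNA (WWTR1 under siRNA.1, YAP1 under siRNA.2). At the adjusted threshold, edgeR with its own filter called 1 and 1, and DESeq2 called 0 and 1. Over the 10 genes the median log2 fold change reached 0.23 under siRNA.1 and 0.11 under siRNA.2, beside medians of -0.0005 and 0.004 over all genes tested. The median absolute log2 fold change over all genes was 0.30 and 0.31. Under siRNA.1 the log2 fold changes of AXL, TEAD1 and AMOTL2 exceeded those of 66.3%, 68.3% and 71.6% of all genes. Those of TEAD4, CCN1 and ANKRD1 exceeded 86.7%, 86.8% and 97.5%. The shares called over all genes include weakly expressed genes and were not matched to the levels of the 10. Only ANKRD1 changed by a log2 fold change of at least 1. Both comparisons use the same control libraries and are therefore not independent of each other.

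**Figure D2:**
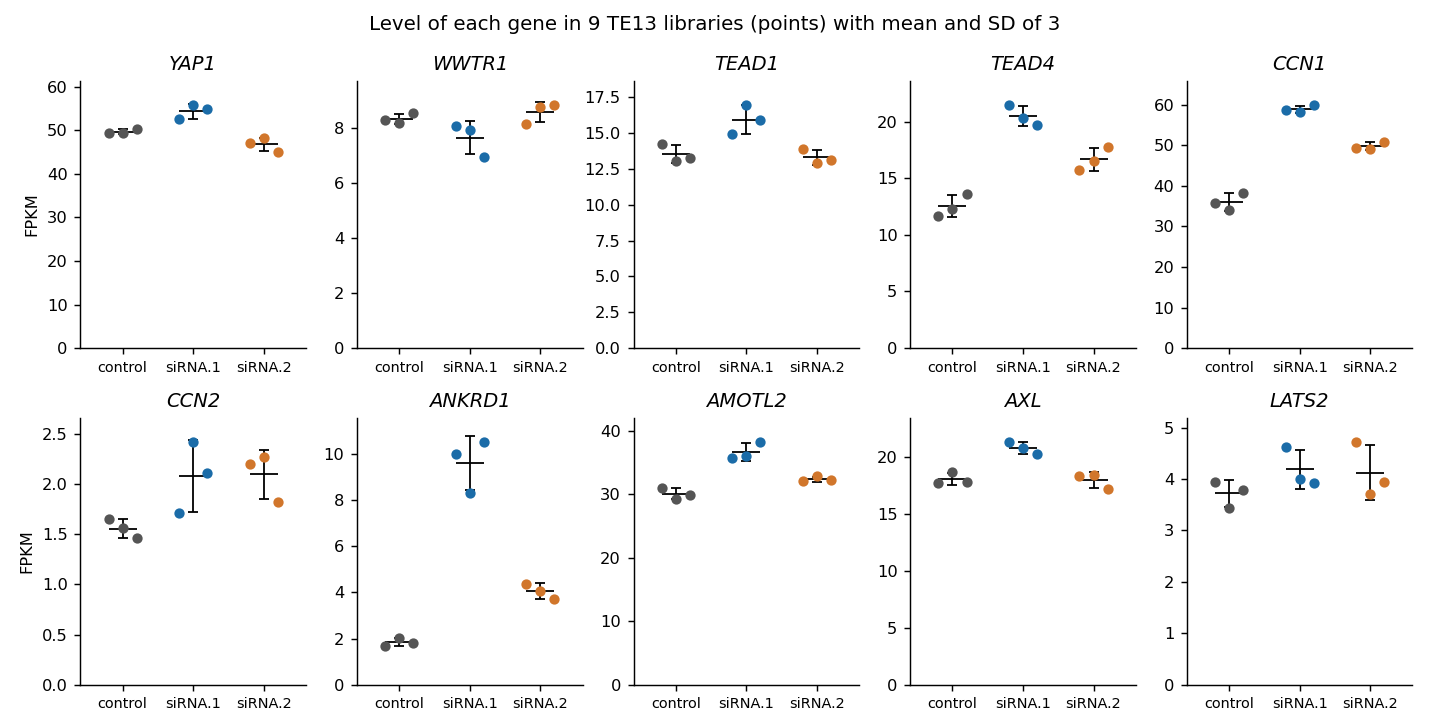
FPKM of the 10 genes in each of the 9 libraries (points, on an axis from 0) with the mean and SD of 3 libraries per condition. The siRNA.1 libraries of TEAD4, CCN1 and ANKRD1 lie highest, the siRNA.2 libraries lie between them and the controls, CCN2 overlaps between the siRNAs, and LATS2 overlaps between all conditions.

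YAP1 (ENSG00000137693, chr11:102110447-102233424, plus strand) encodes the transcriptional cofactor YAP. Its level was 49.3, 49.3 and 50.3 FPKM in the control libraries, 52.5, 55.7 and 54.7 FPKM under siRNA.1, and 46.9, 48.2 and 45.1 FPKM under siRNA.2. The 3 conditions did not overlap, siRNA.1 being highest and siRNA.2 lowest. Against control, the log2 fold change was 0.10 (SE 0.04, adjusted p = 0.0547) under siRNA.1 and -0.10 (SE 0.04, adjusted p = 0.0623) under siRNA.2, neither past the threshold. The siRNAs differed from each other by a log2 fold change of -0.20 for siRNA.2 against siRNA.1 (SE 0.04, adjusted p = 6.76e-05). Both comparisons with control lay close to the threshold: without siRNA.1 replicate 1 the adjusted p was 0.03 for siRNA.1 and 0.0497 for siRNA.2, without siRNA.2 replicate 1 it was 0.0392 for siRNA.1, and without siRNA.2 replicate 2 it was 0.0363 for siRNA.2. By DESeq2 both passed, with adjusted p of 0.0255 for siRNA.1 and 0.0165 for siRNA.2.

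WWTR1 (ENSG00000018408, chr3:149517235-149736714, minus strand) encodes TAZ, the paralogue of YAP. Its level was 8.27, 8.18 and 8.53 FPKM with control siRNA, 8.05, 7.91 and 6.95 FPKM under siRNA.1, and 8.13, 8.75 and 8.81 FPKM under siRNA.2. All siRNA.1 libraries lay below the control libraries, replicate 3 the farthest, and the siRNA.2 libraries overlapped the controls. The log2 fold change against control was -0.15 (SE 0.06, adjusted p = 0.0545) under siRNA.1 and 0.03 (SE 0.06, adjusted p = 0.794) under siRNA.2. WWTR1 was higher under siRNA.2 than under siRNA.1 by a log2 fold change of 0.18 (SE 0.06, adjusted p = 0.0345), the only one of the 10 genes to be so, where 6.1% of all genes were higher. This last call did not hold without siRNA.1 replicate 3 (log2 fold change 0.12, adjusted p = 0.37), without siRNA.2 replicate 2 (0.16, adjusted p = 0.163) or without siRNA.2 replicate 3 (0.16, adjusted p = 0.205), and the siRNA.1 comparison passed without siRNA.1 replicate 1 (adjusted p = 0.0218) or replicate 2 (0.0493).

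The level of YAP1 was 5.96 ± 0.0615 times that of WWTR1 in the control libraries (SD, n = 3), 7.15 ± 0.685 times under siRNA.1 and 5.47 ± 0.33 times under siRNA.2. The ratio of FPKM was between 5.90 and 6.02 with control siRNA, between 6.52 and 7.88 under siRNA.1, and between 5.12 and 5.77 under siRNA.2. The ranges did not overlap, and the ratio itself was not tested.

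TEAD1 (ENSG00000187079, chr11:12674421-12944737, plus strand) is a TEAD transcription factor gene widely expressed in epithelia. It measured 14.2, 13.1 and 13.3 FPKM with control siRNA, 14.9, 16.9 and 15.9 FPKM under siRNA.1, and 13.9, 12.9 and 13.1 FPKM under siRNA.2. The siRNA.1 libraries lay above all others, and siRNA.2 overlapped the control. TEAD1 rose under siRNA.1 by a log2 fold change of 0.21 (SE 0.05, adjusted p = 0.000229) and was -0.03 (SE 0.05, adjusted p = 0.681) under siRNA.2, a difference between the siRNAs of -0.24 (SE 0.05, adjusted p = 3.68e-05).

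TEAD4 (ENSG00000197905, chr12:2959330-3040676, plus strand) is a family member best known from the trophectoderm and from carcinomas. It measured 11.7, 12.3 and 13.6 FPKM with control siRNA, 21.4, 20.3 and 19.7 FPKM under siRNA.1, and 15.8, 16.5 and 17.8 FPKM under siRNA.2. The 3 conditions did not overlap. TEAD4 rose by a log2 fold change of 0.68 (SE 0.08, adjusted p = 3.33e-15), or 1.60-fold, under siRNA.1 and of 0.40 (SE 0.08, adjusted p = 9.5e-06), or 1.32-fold, under siRNA.2. It was lower under siRNA.2 than under siRNA.1 by a log2 fold change of -0.28 (SE 0.08, adjusted p = 0.00495), which missed the threshold without siRNA.1 replicate 1 (adjusted p = 0.0517) or siRNA.2 replicate 1 (0.0695).

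The remaining TEAD genes, TEAD2 and TEAD3, had negative log2 fold changes under both siRNAs. TEAD2 fell with both siRNAs, from 9.29 ± 0.391 FPKM in control libraries (SD, n = 3) to 7.99 ± 1.03 under siRNA.1 and 7.38 ± 0.471 under siRNA.2, log2 fold changes of -0.24 (SE 0.10, adjusted p = 0.0418) and -0.34 (SE 0.10, adjusted p = 0.00176). The TEAD2 call under siRNA.1 was lost on leaving out any of control replicates 2 and 3 or siRNA.1 replicates 2 and 3, with adjusted p between 0.108 and 0.231, and with DESeq2, limma, library totals only or no filter on low values, with adjusted p between 0.0748 and 0.112. TEAD3, named after its values were seen, measured 9.84 ± 0.578, 8.59 ± 0.8 and 7.11 ± 0.325 FPKM, and fell under siRNA.2 by 0.48 on the log2 scale (SE 0.09, adjusted p = 3.39e-06), while under siRNA.1 its log2 fold change was -0.22 (adjusted p = 0.0576, and 0.0263 without siRNA.1 replicate 3).

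Of the summed FPKM of TEAD1 to TEAD4, TEAD4 made up 27.8% ± 1.93 (SD, n = 3) with control siRNA, 38.7% ± 1.35 under siRNA.1 and 37.5% ± 1.53 under siRNA.2. Its share was at most 29.7% in a control library and at least 35.9% in an siRNA library. TEAD1 held 29.9% ± 1.32, 30.0% ± 1.93 and 29.9% ± 1.53 of the sum. The sum itself was 45.2 ± 0.737 FPKM with control siRNA, 53.0 ± 0.56 under siRNA.1 and 44.5 ± 0.961 under siRNA.2, so the TEAD4 share was higher under siRNA.2 at a total that overlapped the control. Under siRNA.1 the sum exceeded all control libraries. These shares describe the libraries and were not tested.

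**Figure D3:**
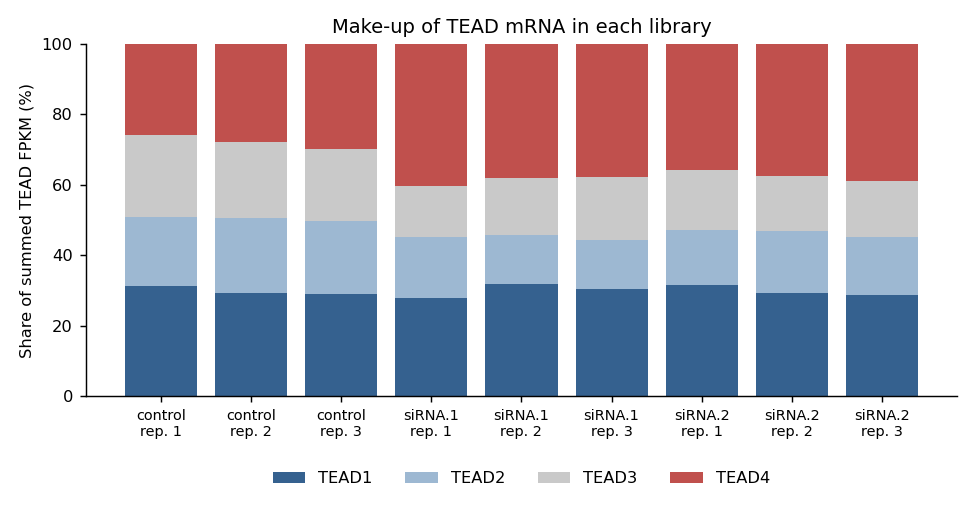
Share of each TEAD gene in the summed TEAD FPKM (%) in the 9 libraries, stacked from TEAD1 to TEAD4. The TEAD4 share lies between 25.8% and 29.7% in the control libraries and between 35.9% and 40.2% in the 6 siRNA libraries, while that of TEAD1 lies between 28.0% and 31.8% in all 9.

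CCN1 (ENSG00000142871, chr1:85580761-85584589, plus strand) encodes the secreted matricellular protein CYR61, which binds integrins. It measured 35.9, 34.0 and 38.4 FPKM with control siRNA, 58.6, 58.2 and 59.9 FPKM under siRNA.1, and 49.3, 49.2 and 50.9 FPKM under siRNA.2. The 3 conditions did not overlap, and siRNA.2 lay between control and siRNA.1. The log2 fold change was 0.68 (SE 0.05, adjusted p = 1.38e-42), or 1.60-fold, under siRNA.1 and 0.45 (SE 0.05, adjusted p = 3.11e-19), or 1.37-fold, under siRNA.2. CCN1 was lower under siRNA.2 than under siRNA.1 by a log2 fold change of -0.23 (SE 0.05, adjusted p = 4.95e-05).

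ANKRD1 (ENSG00000148677, chr10:90912096-90921087, minus strand) encodes a cardiac ankyrin repeat protein that is widely used as a readout of YAP and TEAD activity. Its level was 1.68, 2.04 and 1.81 FPKM with control siRNA (46, 57 and 58 counts), 10, 8.28 and 10.5 FPKM under siRNA.1 (318, 228 and 328 counts), and 4.37, 4.07 and 3.69 FPKM under siRNA.2 (155, 140 and 149 counts). Every siRNA.2 library lay above every control library and below every siRNA.1 library. ANKRD1 rose 5.11-fold under siRNA.1 (log2 fold change 2.35, SE 0.16, adjusted p = 1.8e-45) and 2.17-fold under siRNA.2 (1.12, SE 0.17, adjusted p = 1.31e-09). Between the siRNAs the log2 fold change was -1.23 (SE 0.14, adjusted p = 5.57e-16), the largest difference among the 10 genes.

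CCN2 (ENSG00000118523, chr6:131948176-131951372, minus strand) encodes connective tissue growth factor, another matricellular protein and common YAP readout. It was scarce in TE13 cells, with 1.65, 1.56 and 1.46 FPKM in the control libraries (59, 57 and 61 counts), 1.71, 2.42 and 2.11 FPKM under siRNA.1 (71, 87 and 86 counts), and 2.20, 2.27 and 1.82 FPKM under siRNA.2 (102, 102 and 96 counts). All 6 siRNA libraries lay above the control libraries, and the siRNAs overlapped each other. The log2 fold change was 0.39 (95% interval -0.03 to 0.81, adjusted p = 0.173) under siRNA.1 and 0.42 (95% interval 0.01 to 0.83, adjusted p = 0.125) under siRNA.2. At this depth a change as large as that of CCN1 was neither detected nor excluded for CCN2.

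AXL (ENSG00000167601, chr19:41219223-41261766, plus strand) encodes a receptor tyrosine kinase for GAS6. It measured 17.7, 18.6 and 17.7 FPKM with control siRNA, 21.3, 20.8 and 20.2 FPKM under siRNA.1, and 18.3, 18.4 and 17.1 FPKM under siRNA.2. The siRNA.1 libraries lay above all others, and siRNA.2 overlapped the control. AXL rose under siRNA.1 by a log2 fold change of 0.18 (SE 0.06, adjusted p = 0.0074), and under siRNA.2 it was -0.02 (95% interval -0.13 to 0.09, adjusted p = 0.869). The difference between the siRNAs was -0.20 (SE 0.06, adjusted p = 0.00624) and missed the threshold without siRNA.2 replicate 3 (adjusted p = 0.0823).

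AMOTL2 and LATS2 are targets that feed back on the pathway, since angiomotin proteins bind YAP in the cytoplasm and LATS2 phosphorylates it. AMOTL2 (ENSG00000114019, chr3:134355347-134375479, minus strand) measured 31.0, 29.3 and 29.9 FPKM with control siRNA, 35.7, 36.1 and 38.3 FPKM under siRNA.1, and 32.0, 32.9 and 32.2 FPKM under siRNA.2. The 3 conditions did not overlap. AMOTL2 rose under siRNA.1 by a log2 fold change of 0.26 (SE 0.05, adjusted p = 2.31e-07), and under siRNA.2 it was 0.10 (SE 0.05, adjusted p = 0.108). It was lower under siRNA.2 than under siRNA.1 by -0.16 (SE 0.05, adjusted p = 0.00487), a call lost without siRNA.1 replicate 3 (adjusted p = 0.0962).

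LATS2 (ENSG00000150457, chr13:20973036-21061586, minus strand) measured 3.95, 3.44 and 3.78 FPKM with control siRNA, 4.63, 4.01 and 3.93 FPKM under siRNA.1, and 4.72, 3.70 and 3.94 FPKM under siRNA.2. The conditions overlapped, and replicate 1 of each siRNA was the highest of its condition. The log2 fold change was 0.14 (95% interval -0.05 to 0.34, adjusted p = 0.315) under siRNA.1 and 0.13 (95% interval -0.06 to 0.33, adjusted p = 0.358) under siRNA.2.

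The siRNAs differed from each other in 8 of the 10 genes: 7 were lower under siRNA.2 than under siRNA.1, where 6.07% of all genes were lower, and WWTR1 was higher. CCN2 and LATS2 did not pass, with intervals of -0.37 to 0.43 and -0.21 to 0.18. Over the 10 genes the median log2 fold change between the siRNAs was -0.20, against 0.0043 over all genes tested. The median absolute log2 fold change over all genes was 0.19. The log2 fold change of ANKRD1 exceeded that of 4.4% of all genes. Those of the other lower genes exceeded 19.6% (TEAD4) to 27.9% (AMOTL2), and that of WWTR1 75.1%. Here too the shares called over all genes include weakly expressed genes and were not matched to the levels of the 10. Summed interferon response genes, a set of 10 that rose 10 of 10 with each siRNA, were also lower under siRNA.2 (1341 to 1359 FPKM) than under siRNA.1 (1548 to 1642 FPKM), against 237 to 264 FPKM with control siRNA. The share of counts on mitochondrially encoded genes was between 7.46% and 7.66% with control siRNA, between 4.99% and 5.06% under siRNA.1, and between 5.54% and 5.56% under siRNA.2. The part of either in the results above was not tested.

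**Figure D4:**
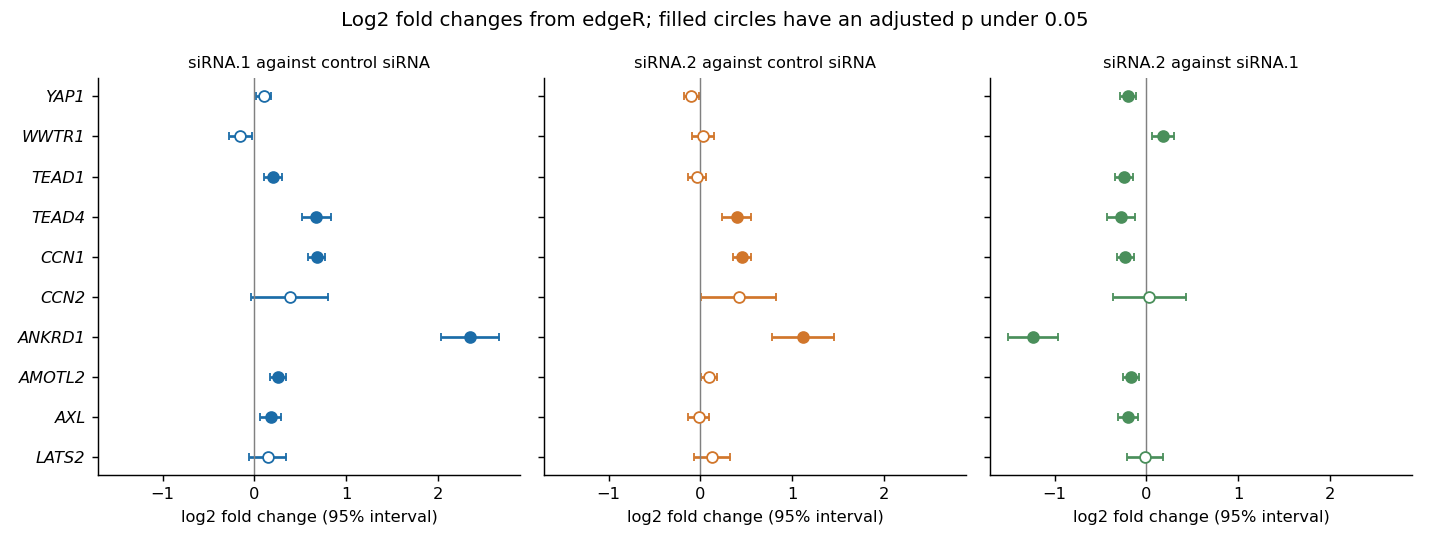
Log2 fold changes of the 10 genes (circles, filled where the adjusted p was under 0.05) with 95% intervals for siRNA.1 against control, siRNA.2 against control, and siRNA.2 against siRNA.1. In the first panel 6 circles are filled on the right, in the second 3, and in the third 7 on the left and WWTR1 on the right.

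PARylator itself was near the limit of detection, with 6, 7 and 12 counts in the control libraries, 4, 5 and 2 under siRNA.1 and 2, 0 and 4 under siRNA.2, and its decrease passed the threshold with neither siRNA (adjusted p = 0.376 and 0.0659). Counts this low cannot decide the extent of the knockdown, which the paper reports from qPCR in TE13 and KYSE450 cells. Squamous epithelial markers were present, all 9 of them at a mean of 1 FPKM or more, with a summed level of 661 to 675 FPKM with control siRNA, 576 to 604 under siRNA.1 and 569 to 589 under siRNA.2. Within this sum 3 of the 9 markers rose and 5 fell with each siRNA. Of all genes tested, 15.0% rose and 15.2% fell under siRNA.1, and 15.8% and 15.1% under siRNA.2. The 3 that rose were KRT6A (log2 fold changes 0.34 and 0.58), DSG3 (0.58 and 0.27) and EPCAM (0.44 and 0.45). Among the 5 that fell were CDH1 (-0.15 and -0.53), KRT5 and SOX2. KRT5, a basal keratin gene, was at 142.5 ± 8.29 FPKM in control libraries (SD, n = 3), 40.0 ± 2.81 under siRNA.1 and 55.8 ± 2.85 under siRNA.2 (log2 fold changes -1.86, SE 0.04, and -1.36, SE 0.04). SOX2, a squamous lineage transcription factor gene, was at 11.7 ± 0.956, 3.3 ± 0.505 and 6.42 ± 0.315 FPKM (-1.85, SE 0.12, and -0.87, SE 0.11). Their part in the results for the 10 genes was not tested. Of the 8 fibroblast markers only COL1A1 reached a mean of 1 FPKM, and none of the 4 endothelial or 6 blood markers did, with MS4A1 at 0 in every library. Summed fibroblast markers were at 2.27 to 2.52, 1.5 to 1.65 and 1.5 to 1.78 FPKM, endothelial markers at 1.2 to 1.54, 0.63 to 0.89 and 0.42 to 0.55 FPKM, and blood markers at 0.12 to 0.23, 0.37 to 0.73 and 0.46 to 0.65 FPKM, in the order control siRNA, siRNA.1 and siRNA.2. In RNA from whole cultures, fewer cells expressing a gene and less RNA of it per cell cannot be told apart.

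For the lists that follow, the shares over all genes tested are those given above, 15.0% higher and 15.2% lower under siRNA.1 and 15.8% higher and 15.1% lower under siRNA.2. Of 15 Hippo kinases, scaffolds and upstream kinases, 6 rose and 4 fell under siRNA.1 (median log2 fold change 0.0017), and 3 rose and 5 fell under siRNA.2 (median 0.006), the 3 of 15 that rose being near the 15.8% of all genes. Without siRNA.1 replicate 1 the number that fell under siRNA.1 was 2. MOB1A and MOB1B, adaptors that activate LATS kinases, fell with both siRNAs. MOB1A was at 41.8 ± 0.761 FPKM in control libraries (SD, n = 3), 28.7 ± 0.514 under siRNA.1 and 27.4 ± 0.468 under siRNA.2, log2 fold changes of -0.57 (SE 0.05, adjusted p = 1.87e-32) and -0.62 (SE 0.05, adjusted p = 5.32e-39). MOB1B was at 8.27 ± 0.566, 4.54 ± 0.28 and 6.71 ± 0.4 FPKM, log2 fold changes of -0.89 (SE 0.07, adjusted p = 3.3e-36) and -0.31 (SE 0.07, adjusted p = 1.56e-05).

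SAV1 and MAP4K4 rose with both siRNAs. The scaffold gene SAV1, whose product joins MST kinases to LATS kinases, had log2 fold changes of 0.28 (SE 0.05, adjusted p = 1.29e-06) and 0.15 (SE 0.05, adjusted p = 0.0166), the latter lost without control replicate 2 (adjusted p = 0.23) or siRNA.2 replicate 2 (0.0608), and at 0.0503 with limma on log2(FPKM + 1). MAP4K4, a kinase that can activate LATS kinases in parallel to MST kinases, had 0.46 (SE 0.04, adjusted p = 4.85e-25) and 0.41 (SE 0.04, adjusted p = 7.22e-20). FRMD6, which encodes a FERM-domain protein upstream of the kinases and is named here after its values were seen, rose under siRNA.1 (0.30, SE 0.05, adjusted p = 1.01e-09) and fell under siRNA.2 (-0.17, SE 0.05, adjusted p = 0.00125).

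The next list holds other TEAD genes, cofactors and regulators of YAP, and not all of their products bind TEAD or YAP. It holds TEAD2 and TEAD3, described above, and also FAT1, FAT4, DCHS1, AJUBA and LIMD1. Of 11 tested among its 13 genes, 1 rose and 4 fell under siRNA.1 (median log2 fold change -0.18), and 0 rose and 8 fell under siRNA.2 (median -0.37), beside 15.2% and 15.1% of all genes that fell. TEAD2 and FAT1 were among the 4, and TEAD2, TEAD3 and AJUBA among the 8. Under siRNA.1 the number that fell was 2 without control replicate 1 and 1 by DESeq2 or limma, and the number that rose was 0 without control replicate 2 or 3 or siRNA.1 replicate 2 or 3. Under siRNA.2 the number that rose was also 0 at an unadjusted p under 0.05, and 0 by DESeq2 and by limma at the adjusted threshold. VGLL4, a TEAD-binding protein that competes with YAP, measured 3.61 ± 0.411 FPKM in control libraries (SD, n = 3), 3.07 ± 0.406 under siRNA.1 and 1.70 ± 0.0874 under siRNA.2. VGLL4 had log2 fold changes of -0.26 (SE 0.10, adjusted p = 0.0377) under siRNA.1 and -1.09 (SE 0.11, adjusted p = 1.2e-22) under siRNA.2. The first of these calls was lost without control replicate 1 (log2 fold change -0.17, adjusted p = 0.308) or siRNA.1 replicate 3 (-0.16, adjusted p = 0.338), and with DESeq2, limma, library totals only or no filter (adjusted p between 0.0678 and 0.209), whereas the difference between the siRNAs, -0.83 (SE 0.11), had an adjusted p of 2.61e-12.

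Other members of this list were named after their values were seen. VGLL3, a TEAD-binding relative of VGLL4, had a log2 fold change of 0.18 (adjusted p = 0.0175) under siRNA.1 and -0.30 (adjusted p = 1.99e-05) under siRNA.2, and the call under siRNA.1 was lost without control replicate 2 or 3 or siRNA.1 replicate 2 or 3 (adjusted p between 0.0704 and 0.196) and with DESeq2 or limma (between 0.0579 and 0.123). VGLL1, at 1.23 ± 0.273, 2.02 ± 0.337 and 0.52 ± 0.291 FPKM (SD, n = 3), differed by -1.95 between the siRNAs (SE 0.35, adjusted p = 1.31e-06) and had -1.26 against control under siRNA.2 (SE 0.37, adjusted p = 0.00285, and 0.0516 without siRNA.2 replicate 3). AMOT, a relative of AMOTL2 that binds YAP, fell from 1.42 ± 0.17 FPKM to 0.603 ± 0.0451 and 0.507 ± 0.211 FPKM, log2 fold changes of -1.26 (SE 0.17, adjusted p = 7.44e-13) and -1.51 (SE 0.17, adjusted p = 3.64e-18).

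A published signature of YAP and TAZ target genes holds 16 genes besides the 6 targets above, of which 15 were tested: 5 rose and 3 fell under siRNA.1 (median log2 fold change 0.05), and 4 rose and 6 fell under siRNA.2 (median -0.08). The 3 of 15 that fell under siRNA.1 were near the 15.2% of all genes. NT5E, the 5′-nucleotidase CD73 that makes extracellular adenosine, rose from 27.0 ± 0.269 FPKM in control libraries (SD, n = 3) to 80.0 ± 3.70 under siRNA.1 and 63.0 ± 0.758 under siRNA.2. Its log2 fold changes were 1.54 (SE 0.05, adjusted p = 6.1e-240) and 1.21 (SE 0.05, adjusted p = 5.71e-150), and the siRNAs differed by -0.33 (SE 0.04, adjusted p = 7.84e-12). IGFBP3, which binds insulin-like growth factors, rose by 0.39 with each siRNA (SE 0.05, adjusted p = 1.08e-11 and 2.92e-12), and ASAP1, a regulator of ARF GTPases, rose by 0.27 (SE 0.05, adjusted p = 6.7e-08) and 0.22 (SE 0.05, adjusted p = 2.1e-05).

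Other genes of the signature fell with both siRNAs. TGFB2, a TGF-beta ligand gene, fell from 13.3 ± 0.277 FPKM in control libraries (SD, n = 3) to 9.03 ± 0.214 under siRNA.1 and 8.25 ± 0.489 under siRNA.2, log2 fold changes of -0.59 (SE 0.07, adjusted p = 1.1e-17) and -0.70 (SE 0.07, adjusted p = 2.69e-25). MYOF, which encodes the membrane protein myoferlin, fell from 131.7 ± 6.94 FPKM to 109.2 ± 6.24 and 97.9 ± 2.15 FPKM. CCDC80, an extracellular matrix protein gene named after its values were seen, fell from 1.15 ± 0.168 FPKM to 0.34 ± 0.0361 and 0.34 ± 0.08 FPKM, log2 fold changes of -1.77 (SE 0.16, adjusted p = 9.43e-26) and -1.76 (SE 0.16, adjusted p = 6.81e-27).

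**Figure D5:**
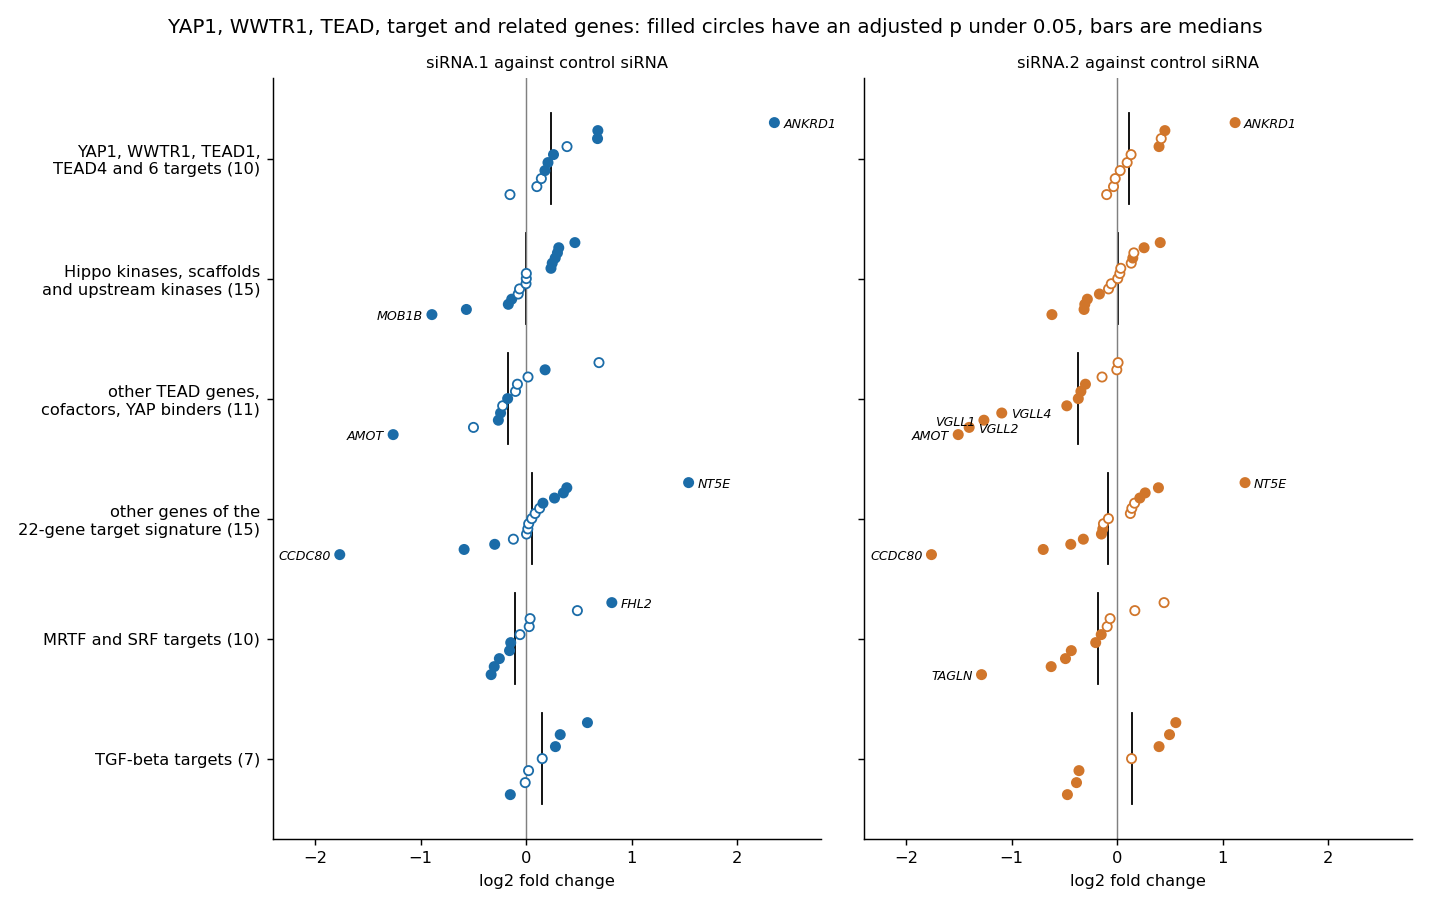
Log2 fold change of each tested gene under siRNA.1 (left) and siRNA.2 (right) against control, by list (circles, filled where the adjusted p was under 0.05, bars marking list medians, number of genes in brackets). The median of the 10 genes lies at 0.23 and 0.11, that of other TEAD genes, cofactors and YAP regulators (labelled YAP binders) at -0.18 and -0.37, and genes beyond 0.8 on either side are labelled.

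Targets of neighbouring pathways that share genes with YAP programmes were counted in the same fit. Of 10 tested targets of MRTF and SRF, which respond to actin, 1 rose and 5 fell under siRNA.1 (median log2 fold change -0.10), and 0 rose and 6 fell under siRNA.2 (median -0.18), beside 15.2% and 15.1% of all genes that fell. The 1 of 10 that rose under siRNA.1 did not exceed the 15.0% of all genes. Without siRNA.1 replicate 2 the number that rose under siRNA.1 was 2. Under siRNA.2, 2 rose at an unadjusted p under 0.05, and 0 by DESeq2 or limma at the adjusted threshold. MYL9, a myosin light chain gene, had log2 fold changes of -0.33 (SE 0.07, adjusted p = 6.73e-05) and -0.63 (SE 0.07, adjusted p = 1.92e-15), and VCL, which encodes the focal adhesion protein vinculin, had -0.30 (SE 0.04, adjusted p = 3.48e-11) and -0.43 (SE 0.04, adjusted p = 1.68e-22). TPM1, a tropomyosin gene, had -0.16 (SE 0.06, adjusted p = 0.0455) and -0.49 (SE 0.06, adjusted p = 4.32e-13), and the first of these was lost on leaving out any of 5 libraries (control replicate 1 or 2, siRNA.1 replicate 2 or 3, or siRNA.2 replicate 3; adjusted p between 0.0532 and 0.283) and with DESeq2, limma, library totals only, no filter or the replicate block (adjusted p between 0.0656 and 0.246). The gene that rose under siRNA.1 was FHL2, a LIM-domain cofactor gene named after its values were seen, with 0.81 (SE 0.08, adjusted p = 1.01e-24), and under siRNA.2 it was 0.17 (SE 0.08, adjusted p = 0.089).

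Of 7 tested TGF-beta targets, 3 rose and 1 fell under siRNA.1 (median log2 fold change 0.15), and 3 rose and 3 fell under siRNA.2 (median 0.14). The 1 of 7 that fell under siRNA.1 did not exceed the 15.2% of all genes. PMEPA1, a feedback inhibitor of TGF-beta signalling, rose by 0.28 (SE 0.05, adjusted p = 4.42e-07) and 0.56 (SE 0.05, adjusted p = 4.79e-27), and the matrix gene TGFBI rose by 0.32 (SE 0.05, adjusted p = 3.69e-11) and 0.50 (SE 0.05, adjusted p = 6.11e-26). LTBP2, which encodes a microfibril-associated protein, had 0.58 (SE 0.12, adjusted p = 1.24e-05) and 0.40 (SE 0.12, adjusted p = 0.00429), the latter lost without control replicate 3 (adjusted p = 0.13) or siRNA.2 replicate 3 (0.0611), and with limma (0.0735 and 0.0782). The number that fell under siRNA.1 was 0 without control replicate 1 or 3 or siRNA.1 replicate 2.

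The genes whose levels followed YAP1, CCN1 and CCN2 most closely were sought by Pearson's r of log2(CPM + 1), CPM being counts scaled to the library total, over the 9 libraries, among 6642 genes averaging 5 FPKM or more in each condition. They were UBE3C (r = 0.969), ZFAND5 (0.963) and FNBP1L (0.960) for YAP1, FNDC10 (0.992), USP36 (0.992) and TXNIP (0.991) for CCN1, and C2orf49 (0.938), KANSL2 (0.934) and TASOR2 (0.934) for CCN2. An r above 0.9 was reached by 43, 553 and 19 genes. All points come from the same 9 libraries in 3 conditions, so r follows the differences between conditions and is given as a description.

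Genes overlapping the 10 on either strand had few reads. The highest count of any in a library was 34, for the noncoding gene ENSG00000277459 opposite the start of YAP1, where YAP1 itself had at least 4776 counts, and 20 for WWTR1-AS1, opposite WWTR1 with at least 1014. Whether the counting used strand is not given in the sources used here.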

How the data were processed

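RNA-seq was measured in 9 TE13 libraries, grouped by their labels into 3 conditions of 3. The authors checked reads with FastQC, used STAR for alignment to GRCh38, and obtained gene counts from featureCounts, with versions not given in the sources used here. The authors deposited raw counts per gene and FPKM, which were recomputed from counts, exonic length and library total to within 0.005.

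Counts were tested with edgeR 4.0.16 (quasi-likelihood, TMM scaling) in R 4.3.3 in 1 fit of all 9 libraries without covariates, over the 21397 genes averaging 0.1 FPKM or more, and p-values were adjusted by the Benjamini-Hochberg method. The common biological coefficient of variation was 0.0566 and TMM factors lay between 0.989 and 1.02. Standard errors were derived from the F statistic. DESeq2 1.42.0, the tool named by the paper, and limma 3.58.1 on log2(FPKM + 0.1) or log2(FPKM + 1) were alternatives, beside other scalings, filters and samples. The scripts were first tested on simulated counts.

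Members and gene lists were chosen with earlier results of these data known, and the lists were written from recall. Genes named from each list are up to 3 in each direction by mean log2 fold change among those past the threshold with both siRNAs in the same direction and with a mean of at least 1 FPKM, and others are marked where they appear. Not every gene that qualified is reported here. Libraries of a condition differed beyond sampling noise, so none was counted as a duplicate. The labels do not say whether libraries came from separate transfections, so p-values measure the spread between these libraries, which may be technical. All 10 genes have the same start and end in GENCODE release 44.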

Additional observations from a re-analysis of the deposited data

Results flagged for a closer look

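Of the 10 genes, 8 differed between the siRNAs, although both siRNAs are directed at the same RNA. The test was edgeR's direct contrast of siRNA.2 with siRNA.1, adjusted over all 21397 genes, which 6.1% of genes passed as higher and 6.07% as lower with siRNA.2. These shares include weakly expressed genes and were not matched to the levels of the 10. By size of change ANKRD1 exceeded 4.4% of all genes, the other lower genes 19.6% to 27.9%, and WWTR1 75.1%. The log2 fold changes were -0.20 for YAP1, 0.18 for WWTR1, -0.24 for TEAD1, -0.28 for TEAD4, -0.23 for CCN1, -1.23 for ANKRD1, -0.16 for AMOTL2 and -0.20 for AXL. The WWTR1 call was lost in 9 of 18 other settings, among them DESeq2 and RLE scaling. Those of TEAD4, AMOTL2 and AXL were lost on leaving out single libraries, as given above. YAP1 was the only one of these whose libraries lay above all controls with one siRNA and below all controls with the other, and neither comparison with control passed the threshold in the main edgeR fit. DESeq2 called both, at 0.10 (adjusted p = 0.0255) with siRNA.1 and -0.11 (0.0165) with siRNA.2. Both also passed in edgeR with RLE scaling (adjusted p = 0.0462 and 0.0331) and with its own filter (0.0401 and 0.0311). The cause was not tested.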

How the results depend on the processing

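The 30 log2 fold changes of the 10 genes (3 comparisons each) were recomputed under 9 other fits and without each of the 9 libraries in turn. Of the 540 values, 501 kept their direction and their side of the threshold, 13 lost and 18 gained a call, and 8 changed sign. All sign changes were of values near 0 that passed in no setting: without single libraries, TEAD1 with siRNA.2 ranged from -0.0605 to 0.0035, AXL with siRNA.2 from -0.0426 to 0.0091, and between the siRNAs CCN2 ranged from -0.0908 to 0.145 and LATS2 from -0.1061 to 0.0719.

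The numbers of the 10 genes that rose under siRNA.1 (6) and siRNA.2 (3) depended on the size of change required: where a log2 fold change of 1 or more was also required they were 1 and 1, while between the siRNAs 0 of the 10 were higher and 1 was lower. Over all genes that requirement left 521 higher and 326 lower under siRNA.1, 494 and 367 under siRNA.2, and 55 and 75 between the siRNAs. limma called fewer genes between the siRNAs, 595 higher and 842 lower with a pseudocount of 0.1, and 589 and 825 with 1. The number that fell with siRNA.1 was 1 (WWTR1) with edgeR's own filter, and ranged from 0 to 1 without single libraries. The number that fell with siRNA.2 was 1 (YAP1) with RLE scaling, with edgeR's own filter, with DESeq2 and with only the groups compared, and ranged from 0 to 1 without single libraries. WWTR1, the 1 gene higher with siRNA.2 than with siRNA.1, was lost, leaving 0, with RLE scaling, library totals only, DESeq2, limma at both pseudocounts and the replicate block, and the number ranged from 0 to 1 without single libraries. YAP1 with siRNA.1 passed with RLE scaling (adjusted p = 0.0462), library totals only (0.0058), edgeR's own filter (0.0401), DESeq2 (0.0255) and limma (0.0218 and 0.0211). The cause of these changes was not tested.

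Deviations of libraries with the same replicate number correlated between -0.195 and 0.106 over 9 pairs, and those with different numbers between -0.082 and 0.181. Each library correlated best with its own number in 4 of 18 cases. Deviations from means of only 3 libraries cannot decide whether equal numbers share a culture or batch. With the replicate as a block, 6 and 3 of the 10 genes rose with the siRNAs, 0 fell, and between the siRNAs 0 were higher (WWTR1 at an adjusted p of 0.055) and 7 lower. CCN2 had between 57 and 102 counts in a library, and its intervals were the widest of the 10 genes. The other lists and genes named were recomputed under the same settings, a choice made after seeing the data, and of 1260 gene fold changes 1201 kept their call and 0 changed sign, while of 1080 list counts 1012 stayed within 1.5 times the reported count. Under siRNA.1 the calls of TEAD2, VGLL4 and TPM1 were lost with DESeq2, limma, library totals only and no filter.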
